A study of Homo sapiens with 6 samples.

Results

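Ewing sarcoma surface antigens are membrane proteins by which these tumor cells are recognized in diagnosis or reached by antibodies and engineered T cells. Their transcripts were compared in TC71, a human Ewing sarcoma cell line, with and without knockdown of EHD1, a regulator of endocytic recycling that returns receptors to the plasma membrane. The 9 genes examined were CD99, STEAP1, STEAP2, IL1RAP, ENPP1, CD276, LINGO1, SLCO5A1 and ADGRG2, chosen by symbol from the 60676 genes of the deposited count table. Each symbol stood in a single row, and all 9 passed the filter on low counts, so all were tested among 16785 genes. The 6 libraries comprised 3 of cells in which doxycycline (Dox) induced a non-targeting shRNA from a lentiviral vector (shNTC+Dox, the control cells) and 3 of cells in which it induced an shRNA to EHD1 (shEHD1+Dox, the EHD1-KD cells). Both lines were stable polyclonal populations made with a vector that also encodes GFP, and both were kept in 0.5 µg/ml Dox for 3 days, so the drug was common to all libraries. Which of the study's EHD1 shRNAs was used is not given in the sources used here, and cells without Dox were not analysed here. Loss of EHD1, action of the shRNA on other transcripts and differences between the lines therefore cannot be told apart in this comparison.

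Ewing sarcoma is driven by a fusion of EWSR1 with an ETS-family factor, most often FLI1, which binds GGAA motifs and switches on a characteristic set of genes. Several of these antigens, among them STEAP1, IL1RAP and ADGRG2, are known as genes that depend on the fusion, and strong membrane staining for CD99 is a diagnostic hallmark of the tumor. A protein's amount at the surface depends on transcription, translation and traffic, and the values here measure the transcript alone.

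The total count ran from 22711235 to 28203023 in control cells and from 24150135 to 30582187 in EHD1-KD cells. EHD1 itself was at 27.1, 28.0 and 26.4 CPM (TMM-normalized read counts scaled by library size) in the control libraries and at 7.55, 7.15 and 9.37 CPM in the EHD1-KD libraries, a log2 fold change of -1.76 (SE 0.12, edgeR adjusted p = 0.000135). Of 10 Ewing sarcoma markers, 9 were at a mean of at least 1 CPM, including NR0B1, NKX2-2, FLI1 and PRKCB, and only CCK was below it. Of 24 markers of other cell types, those without a count in any library included the defining markers CD3E, DES, HBB, KRT5, MYOD1, MYOG and VWF. The summed level of the 24 was 228 to 282 CPM in control cells and 408 to 463 CPM in EHD1-KD cells. Most of this sum was COL3A1, a fibrillar collagen, at 194 ± 20.8 CPM in control cells and 359 ± 29.0 CPM in EHD1-KD cells (SD, n = 3). COL3A1 rose (log2 fold change 0.89, edgeR adjusted p = 0.000732). The proteoglycan gene DCN fell, at 4.85 and 2.40 CPM (log2 fold change -1.01, edgeR adjusted p = 0.00778). They were the 2 of 9 tested markers of the list with an adjusted p under 0.05 (22.2%), against 17.3% of all genes tested. The summed level of the 10 Ewing sarcoma markers was 1600 to 1610 CPM in control cells and lower, 1500 to 1520 CPM, in EHD1-KD cells. The part of these shifts in the results below was not tested. Along the second principal component shNTC+Dox replicate 3, at -38.7, stood apart from replicates 1 and 2, at 32.8 and 29.1, and shEHD1+Dox replicate 2, at -24.2, lay apart from replicates 1 and 3 of its group, at 2.09 and -1.01. For some of the results below, a fit without such a library is also given. The labels do not say whether replicates were separate cultures, so p-values measure the spread between these libraries, which may be technical. In bulk RNA, fewer cells with a transcript and less transcript per cell cannot be told apart.

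The antigens differed widely in level. To compare genes, CPM was divided by merged exon length in kilobases (FPKM), with lengths from GENCODE release 44 on GRCh38. STEAP1, a multi-pass membrane protein first described in prostate cancer, had the highest level in the control cells, at 134 ± 6.73 FPKM (SD, n = 3). This was above the level of 98.6% of 16715 tested genes with a known length. CD99 followed at 48.1 ± 2.68 FPKM, then SLCO5A1 at 33.5 ± 2.33 and STEAP2 at 32.6 ± 3.39 FPKM. LINGO1 was at 21.7 ± 0.655 FPKM and IL1RAP at 19.6 ± 2.32 FPKM. ENPP1 at 9.28 ± 1.70, CD276 at 6.69 ± 0.149 and ADGRG2 at 3.33 ± 0.739 FPKM were the lowest of the list. Libraries of SLCO5A1 and STEAP2 overlapped, as did those of LINGO1 and IL1RAP, whereas all other neighbors in this order did not overlap.

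Per merged exon length, the same order of means was found in shEHD1+Dox, where STEAP1 was at 99.6 ± 5.11 FPKM, CD99 at 60.6 ± 5.88 and ADGRG2 at 4.39 ± 0.336 FPKM (SD, n = 3). There the libraries of SLCO5A1, at 34.8 ± 1.73 FPKM, lay entirely above those of STEAP2, at 24.3 ± 1.52 FPKM. The order depended on the gene model. The merged exons of CD99 span 4858 bases but its longest annotated transcript only 1278. Per longest transcript CD99 was at 183 ± 10.2 FPKM in shNTC+Dox, above STEAP1 at 170 ± 8.53 FPKM. By that length the order also differed between the groups. STEAP2 ranked 3 and SLCO5A1 5 in shNTC+Dox, whereas SLCO5A1 ranked 3 and STEAP2 5 in shEHD1+Dox. The summed level of the 9 antigens was 1620, 1630 and 1460 CPM in control cells and 1500, 1550 and 1580 CPM in EHD1-KD cells. These ranges overlapped, and the antigens together took 0.143% to 0.160% of each library's counts.

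**Figure D1:**
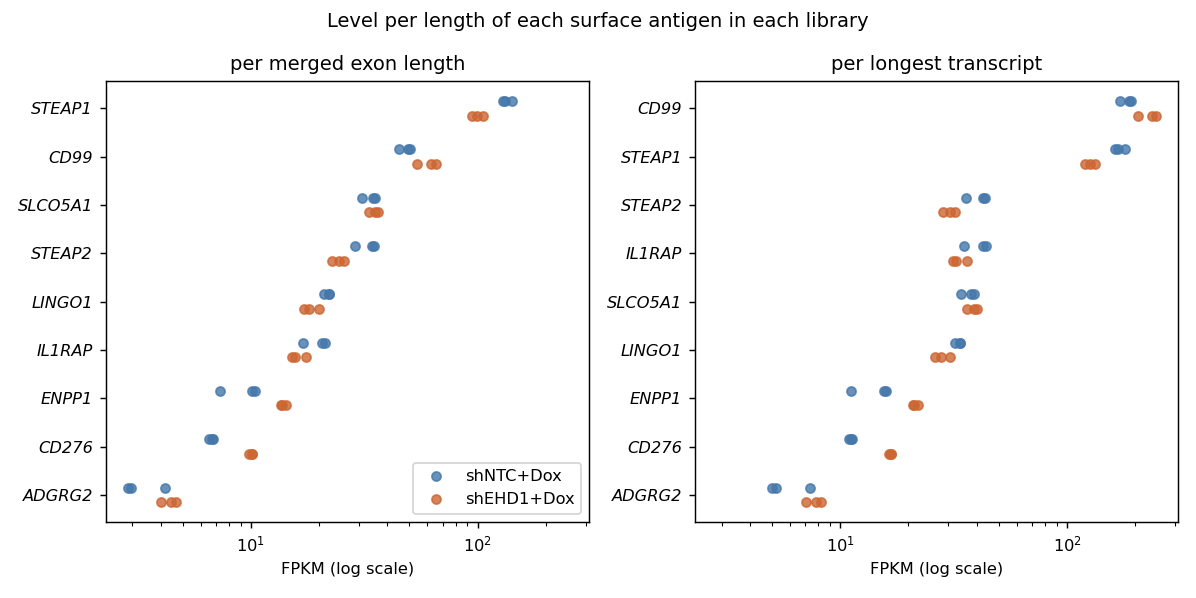
Level of each antigen in each library in FPKM (log scale), blue for shNTC+Dox and orange for shEHD1+Dox, with 3 points per group, per merged exon length (left) and per longest transcript (right). STEAP1 ranks first on the left, at 134 FPKM in shNTC+Dox, and CD99 ranks first on the right, at 183 FPKM, while ADGRG2 is lowest in both.

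Between control and EHD1-KD cells, the antigens differed in both directions and by less than 2-fold. CD276, ENPP1 and CD99 rose, STEAP1 and STEAP2 fell, and IL1RAP, LINGO1, SLCO5A1 and ADGRG2 did not pass the test. Thus 5 of the 9 had an edgeR adjusted p under 0.05, compared with 17.3% of all genes tested and 24.3% of the 5702 genes with a mean CPM at least that of the lowest antigen. By direction, 3 of 9 were higher, against 8.59% of all genes, and 2 of 9 lower, against 8.75%. The antigens were chosen with earlier results of these data known, so the shares only describe the list, and an excess was not tested. By edgeR and by DESeq2 none passed the additional 2-fold threshold used by the study, which 2.82% of all genes passed. Without adjustment, all but SLCO5A1 had a p under 0.05 in edgeR, as did 32.3% of all genes tested. The 95% interval of each of the 9 changes, which is not adjusted for the number of genes, lay within a 2-fold change in either direction, the lowest bound being -0.63 and the highest 0.86 on the log2 scale. The median log2 fold change of the list was 0.06 and its median size without sign 0.40, against 0.00 and 0.23 over all genes tested. For 6 antigens the groups did not overlap, 3 above and 3 below in shEHD1+Dox, where 39.3% of all genes did not overlap, 19.9% above and 19.4% below. The number of antigens passing was sensitive to single libraries: it was 8 when shNTC+Dox replicate 3 was omitted (21.5% of all genes), 3 when shNTC+Dox replicate 1 was (9.97%) and 4 when shNTC+Dox replicate 2 was (12.1%). With shEHD1+Dox replicate 1, 2 or 3 omitted it was 2, 4 and 2, against 7.74%, 12.1% and 7.77% of all genes. The Wald test of DESeq2 passed 8 antigens, all but SLCO5A1, and 23.4% of the 15473 genes to which it gave an adjusted p.

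**Figure D2:**
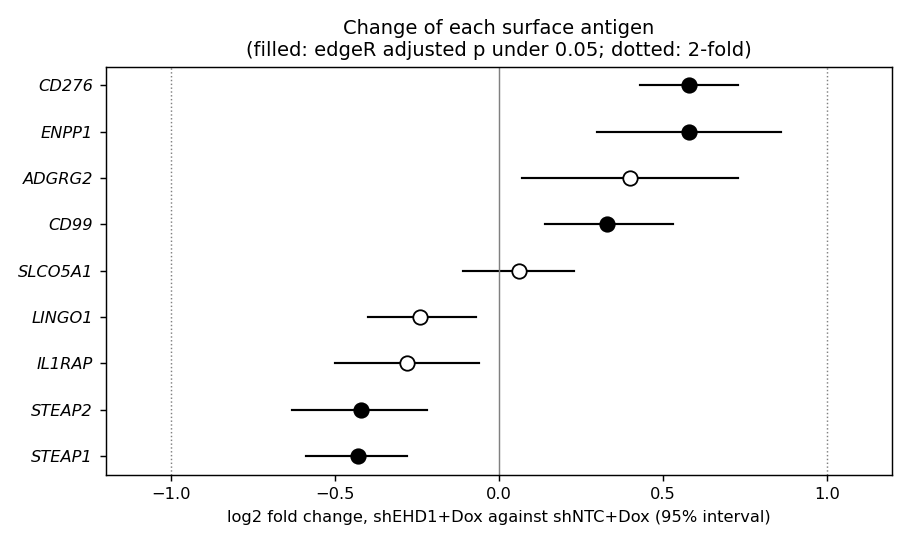
Log2 fold change of each antigen in shEHD1+Dox against shNTC+Dox with its 95% interval from edgeR, where filled points have an adjusted p under 0.05 and dotted lines mark 2-fold. The points run from -0.43 for STEAP1 to 0.58 for CD276, and no interval reaches either dotted line.

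The windows of 250 bases before the RefSeq transcription starts (GRCh38.p14) were searched for GGAA on both strands, the core word read by ETS factors including the EWSR1-FLI1 fusion. Windows were matched by symbol for 8 of the 9 antigens, all but SLCO5A1. Of the 5 antigens that passed the test, ENPP1, which rose, and STEAP1, which fell, are shown, as their windows lie almost wholly before the annotated exons (4 and 13 of the bases are exonic in GENCODE release 44). Capitals mark every GGAA and its reverse complement TTCC.
ENPP1, chr6:131807770-131808019, plus strand: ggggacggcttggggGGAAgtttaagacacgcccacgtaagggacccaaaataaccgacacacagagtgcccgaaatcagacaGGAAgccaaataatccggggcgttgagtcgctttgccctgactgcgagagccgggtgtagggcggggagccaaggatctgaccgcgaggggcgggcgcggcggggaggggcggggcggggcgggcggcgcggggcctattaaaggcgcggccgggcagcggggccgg
STEAP1, chr7:90154219-90154468, plus strand: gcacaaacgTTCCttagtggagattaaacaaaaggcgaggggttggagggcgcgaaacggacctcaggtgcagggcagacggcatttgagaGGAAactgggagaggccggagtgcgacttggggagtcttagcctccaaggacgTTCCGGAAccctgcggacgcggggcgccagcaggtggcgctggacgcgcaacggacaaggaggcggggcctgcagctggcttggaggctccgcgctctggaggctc

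GGAA was present 2 times before ENPP1 and 4 times before STEAP1, and before the most upstream RefSeq start it was present 2 times for CD99, 2 for CD276 and 4 for STEAP2. The word is common, present in 92.7% of 34960 RefSeq promoter windows of this length, with a median of 3 per window. The tandem GGAAGGAA was in none of the windows of these 5 antigens and in 3.06% of all windows. These counts describe the letters of the windows, and binding was not measured.

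CD276 (ENSG00000103855, chromosome 15 from 73683966 to 73714514, plus strand) encodes B7-H3, an immune checkpoint protein of the B7 family that is a target of antibodies and engineered T cells in pediatric solid tumors. It was at 37.4, 35.8 and 36.9 CPM in the control libraries and at 54.0, 55.2 and 55.2 CPM in the EHD1-KD libraries. All values of the knockdown were higher, and replicates differed little, by a coefficient of variation of 2.23% and 1.24%. CD276 rose 1.49-fold (95% interval 1.35 to 1.66), a log2 fold change of 0.58 (SE 0.07, edgeR adjusted p = 0.000937), the smallest adjusted p of the 9 antigens. It passed in each of the 11 alternative analyses, with log2 fold changes of 0.56 to 0.60.

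ENPP1 (ENSG00000197594, chromosome 6 from 131808016 to 131895155, plus strand) encodes an ectoenzyme that splits extracellular ATP into AMP and pyrophosphate and degrades the STING ligand cGAMP. Its level was 116, 118 and 83.6 CPM in control cells and 155, 164 and 157 CPM in EHD1-KD cells. The groups did not overlap, and shNTC+Dox replicate 3 was at 0.713 of the mean of the other control libraries. ENPP1 rose 1.5-fold (95% interval 1.23 to 1.82), a log2 fold change of 0.58 (SE 0.12, edgeR adjusted p = 0.0146). Without shNTC+Dox replicate 3 the log2 fold change was 0.44 (edgeR adjusted p = 0.000941), the smallest of the 11 alternatives. The call was lost, with little change in size, when shEHD1+Dox replicate 1 (0.60, edgeR adjusted p = 0.0523), replicate 2 (0.56, edgeR adjusted p = 0.0570) or replicate 3 (0.59, edgeR adjusted p = 0.0549) was left out. Of its merged exon length, 0.823% is shared with a gene on the opposite strand, which these libraries cannot separate.

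CD99 (ENSG00000002586, chromosome X from 2691187 to 2741309, plus strand) lies in the pseudoautosomal region shared by the X and Y chromosomes and encodes a small glycoprotein of cell adhesion and leukocyte migration. It was at 238, 244 and 219 CPM in control cells and at 304, 263 and 318 CPM in EHD1-KD cells, with every knockdown library above every control library. CD99 rose 1.26-fold (95% interval 1.10 to 1.44), a log2 fold change of 0.33 (SE 0.09, edgeR adjusted p = 0.0293). This call was lost in 4 of 6 fits that left out a library. The log2 fold change was 0.35 without shNTC+Dox replicate 1 (edgeR adjusted p = 0.0736), 0.36 without shNTC+Dox replicate 2 (edgeR adjusted p = 0.0559), 0.31 with shEHD1+Dox replicate 1 left out (edgeR adjusted p = 0.112) and 0.28 with shEHD1+Dox replicate 3 left out (edgeR adjusted p = 0.119). How reads of the pseudoautosomal region and of the related sequence CD99P1 were assigned is not given in the sources used here.

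CD99L2, the closest relative of CD99, was at 63.4 ± 1.04 CPM in control cells and 67.9 ± 2.17 CPM in EHD1-KD cells (SD, n = 3), with a log2 fold change of 0.10 that did not pass (SE 0.06, edgeR adjusted p = 0.323). Within each library there were 3.75, 3.80 and 3.52 counts of CD99 per count of CD99L2 in control cells and 4.35, 4.01 and 4.63 in EHD1-KD cells. The ratios did not overlap (1.17-fold, p = 0.1 by an exact two-sided permutation test, the lowest value such a test can give here). XG, the neighboring blood group gene of the same family, was at 63.2 ± 10.3 and 64.6 ± 6.47 CPM (log2 fold change 0.03, edgeR adjusted p = 0.884).

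STEAP1 (ENSG00000164647, chromosome 7 from 90154456 to 90164829) and STEAP2 (ENSG00000157214, chromosome 7 from 90167590 to 90238137) are neighbors on the plus strand. In GENCODE, STEAP2 starts 2761 bases beyond the end of STEAP1. The window searched above before its most upstream RefSeq start, from 90211490 to 90211739, lies within these GENCODE bounds of STEAP2. STEAP2 is a metalloreductase of iron and copper, and STEAP1 lacks the NADPH-binding part that such reductases carry. STEAP1 was at 199, 204 and 219 CPM in control cells and at 153, 146 and 162 CPM in EHD1-KD cells, without overlap. It fell to 0.741 of control (95% interval 0.664 to 0.826), a log2 fold change of -0.43 (SE 0.07, edgeR adjusted p = 0.00443), and passed in each of 11 alternatives, from -0.47 to -0.39.

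STEAP2 was at 299, 304 and 250 CPM in control cells and at 198, 224 and 213 CPM in EHD1-KD cells. All knockdown libraries were lower, and shNTC+Dox replicate 3 was the control nearest to them. STEAP2 fell to 0.745 of control (95% interval 0.647 to 0.857), a log2 fold change of -0.42 (SE 0.09, edgeR adjusted p = 0.0138). It did not pass without shNTC+Dox replicate 1 (-0.39, edgeR adjusted p = 0.0536), or without replicate 1 (-0.38, edgeR adjusted p = 0.0712) or replicate 3 of shEHD1+Dox (-0.43, edgeR adjusted p = 0.0589).

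The ratio of STEAP1 to STEAP2 counts was 0.666, 0.672 and 0.876 in control cells and 0.775, 0.651 and 0.758 in EHD1-KD cells. The groups overlapped, and the ratio differed 0.992-fold (exact two-sided permutation test, p = 0.9). Of the remaining family, STEAP3 was at 76.1 ± 3.26 and 65.2 ± 3.03 CPM, below in every knockdown library but short of the threshold (log2 fold change -0.22, edgeR adjusted p = 0.0612). STEAP1B, a close copy of STEAP1 whose reads may be shared with it, was at 12.9 ± 0.784 and 12 ± 1.79 CPM (edgeR adjusted p = 0.599).

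**Figure D3:**
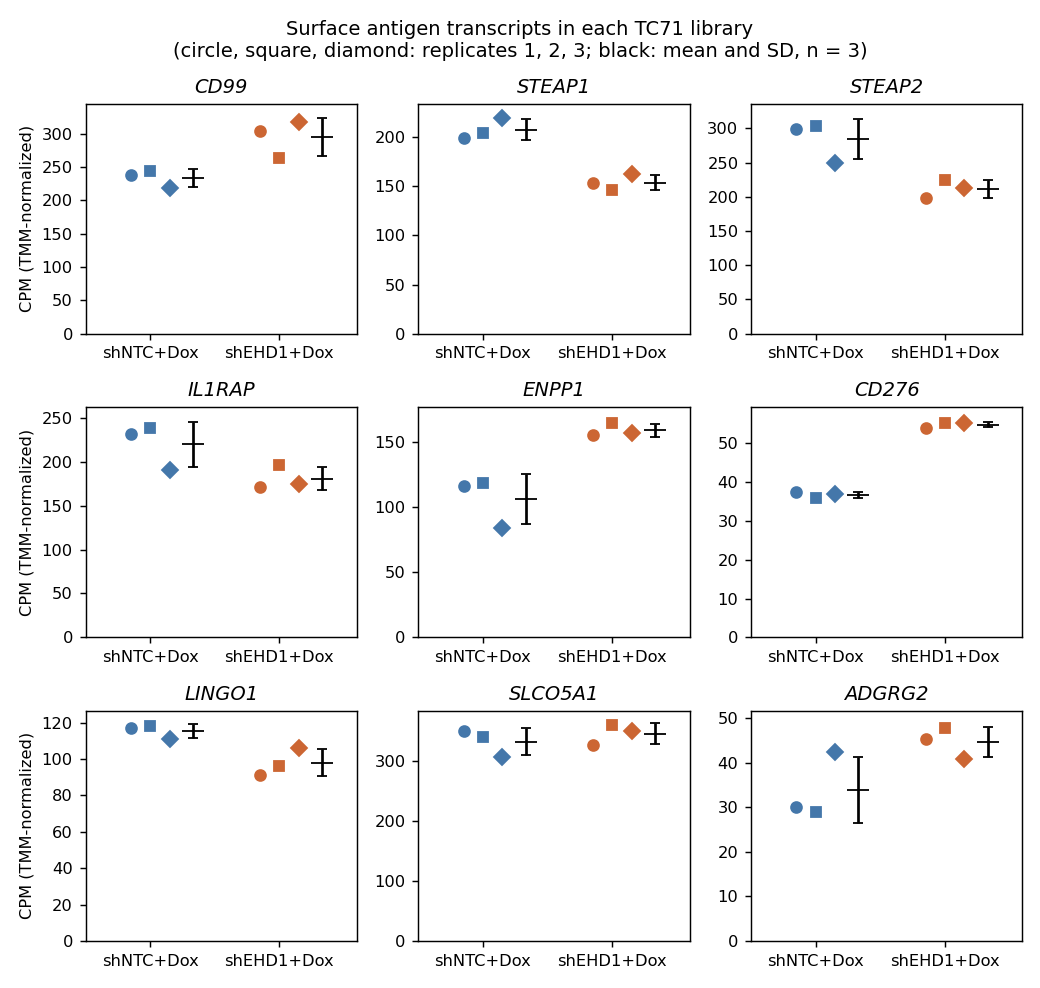
TMM-normalized CPM of the 9 antigens in each library, with control libraries in blue, knockdown libraries in orange, a marker shape per replicate, and black bars for the mean and SD (n = 3). CD99, ENPP1 and CD276 lie above and STEAP1, STEAP2 and LINGO1 below the control libraries without overlap, and shNTC+Dox replicate 3 is the control nearest to the knockdown for ADGRG2 (42.5 CPM) and IL1RAP (190 CPM).

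Of the antigens that did not pass, LINGO1 (ENSG00000169783, chromosome 15 from 77613027 to 77820900, minus strand) is a membrane protein of neurons that acts in the Nogo receptor complex. It was at 117, 118 and 111 CPM in control cells and at 91.5, 96.4 and 106 CPM in EHD1-KD cells. The groups did not overlap, though shEHD1+Dox replicate 3 came close to the controls. The log2 fold change was -0.24 (95% interval -0.40 to -0.07, edgeR adjusted p = 0.0550), and -0.26 without shNTC+Dox replicate 3 (edgeR adjusted p = 0.0270). DESeq2 gave an adjusted p of 0.0245.

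IL1RAP (ENSG00000196083, chromosome 3 from 190514051 to 190659750, plus strand), the shared co-receptor of interleukin-1 and interleukin-33 receptors, was at 231, 238 and 190 CPM in control cells and at 171, 196 and 175 CPM in EHD1-KD cells. The groups overlapped through shNTC+Dox replicate 3. The log2 fold change of -0.28 (95% interval -0.50 to -0.06) had an edgeR adjusted p of 0.0786. Without shNTC+Dox replicate 3 it was -0.38 (edgeR adjusted p = 0.00482), and DESeq2 gave an adjusted p of 0.0343. These were the only 2 of 11 alternatives in which IL1RAP passed, and the highest edgeR adjusted p of the others was 0.243.

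ADGRG2 (ENSG00000173698, chromosome X from 18989307 to 19122637, minus strand), also known as GPR64, is an adhesion G protein-coupled receptor first described in the epididymis. It was at 30.1, 29.0 and 42.5 CPM in control cells and at 45.3, 47.7 and 40.9 CPM in EHD1-KD cells. The overlap again came from shNTC+Dox replicate 3, at 1.44 times the mean of the other controls. The log2 fold change of 0.40 (95% interval 0.07 to 0.73) had an edgeR adjusted p of 0.0914. Without that library it was 0.59 (edgeR adjusted p = 0.00122), and DESeq2 on all libraries gave an adjusted p of 0.0457. ADGRG2 passed in only these 2 of 11 alternatives, and the highest edgeR adjusted p of the others was 0.231.

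SLCO5A1 (ENSG00000137571, chromosome 8 from 69667046 to 69834978, minus strand), a member of the organic anion transporter family, changed least of the list. It was at 349, 340 and 306 CPM in control cells and at 327, 360 and 349 CPM in EHD1-KD cells, with overlapping groups. The log2 fold change was 0.06 (edgeR adjusted p = 0.642), and its 95% interval of -0.11 to 0.23 covers fold changes of 0.925 to 1.17. It passed in none of 11 alternatives, which included DESeq2. Its exons share 77 bases with an antisense gene, SLCO5A1-AS1.

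The transcripts of proteins that work with the antigens were examined next, from a list of 37 ligands, co-receptors, enzymes and transporters, of which 36 were analysed and 29 tested. At an edgeR adjusted p under 0.05, 4 rose and 3 fell, and 22 did not pass, with a median log2 fold change of -0.05. The passing share of 24.1% compares with 17.3% of all genes tested. It was 24.3% among genes with a mean CPM at least that of the lowest antigen, a level that some partners do not reach. Among proteins that form the Nogo receptor complex with LINGO1, both co-receptors of the TNF receptor family changed, in opposite directions. NGFR (p75) fell from 37.3, 36 and 41.9 CPM to 15.5, 15.7 and 18.0 CPM, a log2 fold change of -1.22 (SE 0.10, edgeR adjusted p = 0.000237). TNFRSF19 (TROY) rose from 3.91, 3.43 and 1.84 CPM to 7.37, 6.74 and 7.27 CPM, a log2 fold change of 1.21 (SE 0.26, edgeR adjusted p = 0.0139). The rise of TNFRSF19 did not pass without shEHD1+Dox replicate 1 (1.19, edgeR adjusted p = 0.0575) or replicate 3 (1.2, edgeR adjusted p = 0.0582). Without shNTC+Dox replicate 3 its log2 fold change was 0.96 (edgeR adjusted p = 0.00293), below 2-fold. With shEHD1+Dox replicate 1 or replicate 3 left out, 3 partners passed in place of 7, against 7.74% and 7.77% of all genes. The ligand-binding subunit RTN4R was at 11.2 ± 2.60 and 9.67 ± 0.689 CPM and did not pass (edgeR adjusted p = 0.457).

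Among genes tied to ENPP1, ALPL, the alkaline phosphatase that degrades the pyrophosphate ENPP1 forms, fell from 22.9 ± 1.06 to 12.5 ± 2.1 CPM (log2 fold change -0.87, SE 0.13, edgeR adjusted p = 0.00365). STING1, the receptor of the cGAMP that ENPP1 degrades, rose from 52.1 ± 2.05 to 76.3 ± 4.05 CPM (log2 fold change 0.55, SE 0.07, edgeR adjusted p = 0.00191), without overlap in either case. CGAS, which makes cGAMP, was at 32.3 ± 3.02 and 31.2 ± 3.95 CPM (edgeR adjusted p = 0.797). Of amino acid transport genes linked to IL1RAP in Ewing sarcoma, SLC3A2 fell from 180 ± 24.9 to 130 ± 9.11 CPM (log2 fold change -0.47, SE 0.10, edgeR adjusted p = 0.0167). Without shEHD1+Dox replicate 1 or replicate 3 this call was lost (edgeR adjusted p = 0.0734 and 0.0767). Its partner SLC7A11 was at 84.1 ± 3.88 and 82.6 ± 17.2 CPM (edgeR adjusted p = 0.909). The other members that passed, named after their values were seen, were IREB2, a regulator of iron-responsive transcripts, which rose from 150 ± 8.38 to 185 ± 8.74 CPM (edgeR adjusted p = 0.0209), and the reductase CYB5R3, which rose from 112 ± 3.44 to 132 ± 4.48 CPM (edgeR adjusted p = 0.0351).

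Of 47 paralogs of the antigens only 15 were expressed enough to be tested, and 1 passed (6.67%, against 17.3% of all genes tested), LINGO2. This relative of LINGO1 rose from 12.2, 11.6 and 6.72 CPM to 20.1, 15.9 and 19.4 CPM, a log2 fold change of 0.86 (SE 0.21, edgeR adjusted p = 0.0280), while LINGO1 itself was lower in each knockdown library. The log2 fold change of LINGO2 was 0.63 without shNTC+Dox replicate 3 (edgeR adjusted p = 0.00631). Without shEHD1+Dox replicates 1, 2 or 3 in turn the call of LINGO2 was lost (edgeR adjusted p = 0.104, 0.0504 and 0.0979). This left 0 paralogs, against 7.74%, 12.1% and 7.77% of all genes. Without shNTC+Dox replicate 3, 2 paralogs passed, against 21.5% of all genes. ADGRG6, a relative of ADGRG2, was at 51.6 ± 10.3 and 70.8 ± 4.47 CPM and did not pass (log2 fold change 0.46, edgeR adjusted p = 0.0521).

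Of 56 other surface proteins that have been studied as tumor targets, 45 were tested. Of these 8 rose, 1 fell and 36 did not pass, with a median log2 fold change of 0.12. The passing share of 20.0% compares with 17.3% of all genes tested (8.59% higher and 8.75% lower). Among genes with a mean CPM at least that of the lowest antigen, which some of this list do not reach, 24.3% passed. Larger changes than those of the antigens were found here. CDH11, a mesenchymal cadherin, fell from 263, 266 and 245 CPM to 103, 105 and 90.1 CPM, a log2 fold change of -1.37 (SE 0.08, edgeR adjusted p = 5.08e-05). ALCAM, an adhesion molecule of the immunoglobulin family, rose from 23.8, 24.3 and 16.0 CPM to 58.1, 58.3 and 55.8 CPM, a log2 fold change of 1.42 (SE 0.14, edgeR adjusted p = 0.000628). Without shNTC+Dox replicate 3 the log2 fold change of ALCAM was 1.25 (edgeR adjusted p = 9.77e-06). ULBP1, a ligand of the natural killer cell receptor NKG2D, rose from 16.3 ± 2.56 to 28.6 ± 1.29 CPM (log2 fold change 0.81, SE 0.12, edgeR adjusted p = 0.00342). With a library omitted, 3 of this list passed for shEHD1+Dox replicates 1 and 3, 5 for shEHD1+Dox replicate 2 and for shNTC+Dox replicate 1, and 14 for shNTC+Dox replicate 3. Of all genes, 7.74% and 7.77% passed without shEHD1+Dox replicates 1 and 3. The share was 12.1% without shEHD1+Dox replicate 2, 9.97% without shNTC+Dox replicate 1 and 21.5% without shNTC+Dox replicate 3.

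The receptor tyrosine kinase ROR2, at 2.09 ± 0.299 and 3.45 ± 0.178 CPM (log2 fold change 0.72, edgeR adjusted p = 0.0393), and ST8SIA1, the GD3 synthase on the way to the ganglioside target GD2, at 15.4 ± 1.97 and 21.5 ± 2.32 CPM (log2 fold change 0.48, edgeR adjusted p = 0.0350), rose but lost the call without any single library except, for both, shNTC+Dox replicate 3. ROR2 also lost it when all genes were kept unfiltered (0.74, edgeR adjusted p = 0.0584). The lowest and highest adjusted p of these fits were 0.0575 and 0.133 for ROR2 and 0.0530 and 0.134 for ST8SIA1. IGF1R, whose surface traffic the study examined, was at 113, 115 and 105 CPM in control cells and at 121, 134 and 126 CPM in EHD1-KD cells. Its knockdown libraries were all higher, but the log2 fold change of 0.19 (SE 0.07) did not pass (edgeR adjusted p = 0.0960).

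**Figure D4:**
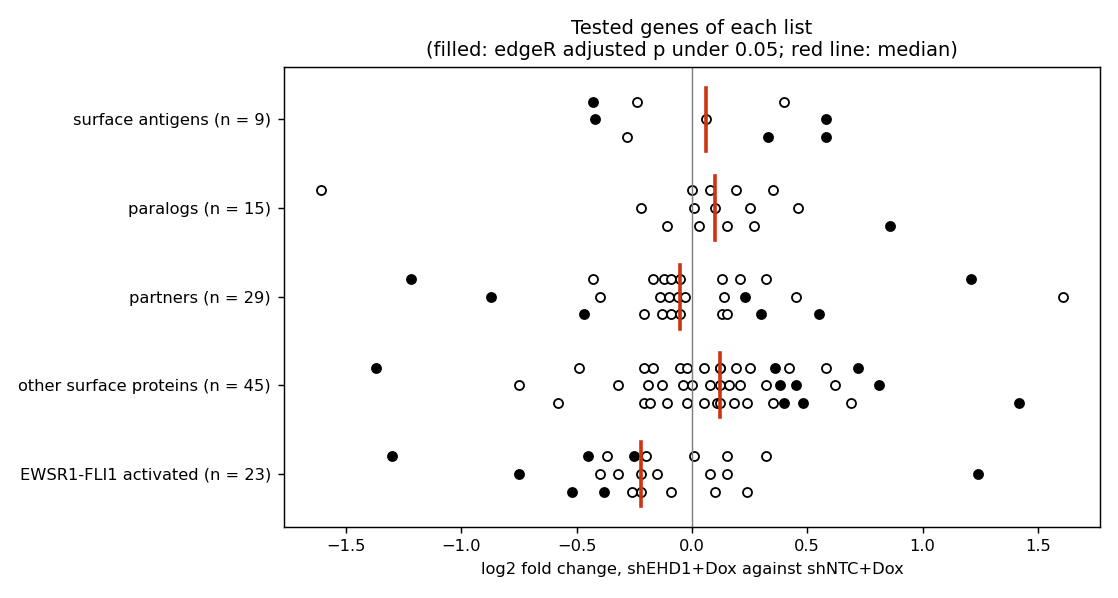
Log2 fold change in shEHD1+Dox against shNTC+Dox of the tested genes in each list, where each point is a gene, filled points have an edgeR adjusted p under 0.05, and red lines mark medians. The antigens span -0.43 to 0.58, inside the range of the other surface proteins, which runs from -1.37 (CDH11) to 1.42 (ALCAM).

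Genes that the EWSR1-FLI1 fusion activates were set beside the antigens. The 10 Ewing sarcoma markers above, apart from FLI1 and EWSR1, are among them, so the falls of BCL11B, NPY1R and PAX7 enter both lists. Of 24 fusion-activated genes 23 were tested, of which 1 rose, 6 fell and 16 did not pass, with a median log2 fold change of -0.22. The passing share of 30.4% compares with 17.3% of all genes tested (8.59% higher and 8.75% lower). Among genes with a mean CPM at least that of the lowest antigen, a level that most but not all of this list reach, 24.3% passed. The largest fall was that of ID2, an inhibitor of differentiation factors, from 114 ± 12.7 to 46.0 ± 3.28 CPM (log2 fold change -1.30, edgeR adjusted p = 0.000155). BCL11B (-0.75, edgeR adjusted p = 0.00120), TNNT1 (-0.52, edgeR adjusted p = 0.00873), the neuropeptide receptor NPY1R (-0.45, edgeR adjusted p = 0.00734), PAX7 (-0.38, edgeR adjusted p = 0.0107) and the kinase VRK1 (-0.25, edgeR adjusted p = 0.0317) fell as well, and UPP1, at a mean under 1 CPM, rose (1.24, edgeR adjusted p = 0.0398). Without shEHD1+Dox replicate 1, PAX7 did not pass (edgeR adjusted p = 0.0544) and 4 of the list did, against 7.74% of all genes. Without shNTC+Dox replicate 3 the number was 11, against 21.5% of all genes. NR0B1, among the best-known targets of the fusion, was at 189 ± 26.7 and 202 ± 27.5 CPM (edgeR adjusted p = 0.634). FLI1 reads, which can include those of the fusion, were at 65.2 ± 17.1 and 55.9 ± 4.41 CPM (edgeR adjusted p = 0.409).

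Across the 6 libraries, the genes whose log2 CPM was most like that of CD276 were FOXJ3, TJP3 and SEMA6D (Pearson r = 0.998, 0.997 and 0.997), and 533 tested genes reached an r of 0.95. Those most like CD99 were ZNF699, IDH3G and GDF10 (r = 0.997, 0.996 and 0.995), with 220 genes at an r of at least 0.95. Among the antigens, r was 0.961 between STEAP2 and IL1RAP, 0.868 between ENPP1 and CD276, and -0.962 between STEAP1 and CD276. These values are descriptions over 6 libraries of 2 groups, and they share the difference between the groups and the normalization of each library.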

How the data were processed

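RNA-seq counts of 6 TC71 libraries were analysed. Per the study's methods, the authors prepared the libraries with the TruSeq RNA Library Prep Kit v2, which does not keep strand, used hisat2 to align read pairs to hg38 and StringTie, under Ensembl gene models, for quantification. The submitters' processing notes also list STAR 2.7.3a and DESeq2. The deposited values are whole-number counts per gene, without normalization, and how they were derived from StringTie output is not given in the sources used here.

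Genes reaching 10 counts in 3 or more libraries were tested in R 4.3.3 with edgeR 4.0.16 (TMM, glmQLFit with robust estimation, glmQLFTest) and Benjamini-Hochberg adjustment over all 16785 genes, and the study's 2-fold threshold was applied beside an adjusted p of 0.05. Log2 CPM used a prior count of 2. The 95% intervals used the model's standard errors and degrees of freedom. DESeq2 1.42.0 was an alternative. The scripts were tested on simulated data. Of the gene identifiers, 99.5% were found in GENCODE release 44 (GRCh38, the primary assembly of hg38).

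The antigens and gene lists were chosen with earlier results of these data known, so no set test was run. Besides the antigens, EHD1, IGF1R and CD99L2, the rule named up to 5 genes per list with the largest change at an adjusted p under 0.05 and a mean of at least 1 CPM, and the 3 genes most like CD99 and most like the antigen with the smallest adjusted p. Other genes were named after their values were seen, and the ratios of counts within a library were added then. IRAK4, on the list of partners, was not analysed here.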

Additional observations from a re-analysis of the deposited data

How the results depend on the processing

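The antigens other than SLCO5A1 kept their direction in all 11 alternatives run for each, and SLCO5A1 ranged from 0.00 (without shNTC+Dox replicate 3) to 0.10, close to no change. The alternatives were size factors of DESeq2, all genes unfiltered, a minimum of 10 counts in each library, the DESeq2 Wald test, the replicate number as a block and the omission of each library in turn. Of the 99 values, 81 stayed on the same side of the threshold. STEAP1, CD276 and EHD1 passed in all alternatives and SLCO5A1 in none. Under DESeq2 the antigens passing rose from 5 to 8, with log2 fold changes of -0.29 for IL1RAP, -0.24 for LINGO1 and 0.40 for ADGRG2, and the paralogs passing rose from 1 to 3 and the EWSR1-FLI1 activated genes from 7 to 11. With at least 10 counts in every library, LINGO1 passed at -0.24 (edgeR adjusted p = 0.0477), and 2 paralogs passed.

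The groups share replicate numbers, but same-numbered libraries did not deviate together (mean correlation of deviations -0.0107, against 0.00602 for other pairs). With the replicate block, 365 genes were called in place of 473, CD99 was at 0.33 and did not pass (edgeR adjusted p = 0.0787), and no other antigen changed its call. ROR2 and ST8SIA1 lost theirs under the block.

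With each library left out, the antigens passing ranged from 2 to 8, the genes called at 2-fold from 299 (without shEHD1+Dox replicate 3) to 470, the paralogs passing from 0 to 2, the partners from 3 to 10, the other surface proteins from 3 to 14 and the EWSR1-FLI1 activated genes from 4 to 11. At an adjusted p under 0.05 alone, the passing share of all genes in these fits ran from 7.74% to 21.5%. The log2 fold changes ranged from 0.28 to 0.41 for CD99, from -0.51 to -0.38 for STEAP2, from -0.38 to -0.22 for IL1RAP, from 0.44 to 0.67 for ENPP1, from -0.30 to -0.19 for LINGO1 and from 0.30 to 0.59 for ADGRG2. The smallest p of a permutation test of a single value is 0.1. Testing the 2-fold threshold within the model called 39 genes, none of them an antigen. Per longest transcript, levels in shNTC+Dox were 183 FPKM for CD99, 170 for STEAP1, 40.7 for STEAP2, 40.5 for IL1RAP, 36.9 for SLCO5A1, 33.2 for LINGO1, 14.2 for ENPP1, 11.1 for CD276 and 5.85 for ADGRG2, all higher because those lengths are shorter. Library totals in place of TMM moved each level in shNTC+Dox by less than 1 SD. No antigen symbol stood in more than 1 row, so summed rows were not run.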
